A study of Mus musculus with 117 samples.

Results

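The liver makes most of the proteins dissolved in blood plasma. A list of 35 genes for such proteins was drawn up, and 31 of them were measured on the arrays, out of 17097 genes with a probe set of their own; Ahsg, C3, Orm1 and Gc were not analysed here. Each gene was read from the probe set with 1 gene name and the highest mean over all arrays. Their products fall into carriers (Alb, Ttr, Trf, Rbp4, Hpx, Hp, Cp, Ambp, Fetub), apolipoproteins (Apoa1, Apoa2, Apob, Apoc1, Apoh), proteins of coagulation and its inhibition (Fga, Fgb, Fgg, F2, F9, Plg, Kng1, Hrg, Serpinc1, Serpind1, Vtn), heavy chains of inter-alpha-trypsin inhibitors (Itih1 to Itih4) and complement (C9, Cfb).

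Hepatocytes secrete these proteins continuously. Liver-enriched transcription factors, among them hepatocyte nuclear factors and C/EBP proteins, keep the genes on, and in inflammation interleukin-6 acting through STAT3 raises some of them (the acute phase proteins, such as haptoglobin and fibrinogen) while others, such as albumin and transthyretin, fall. Several are also made elsewhere, for example apolipoprotein A-I in the gut and transferrin in other epithelia and in brain.

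The study hybridised RNA of 117 mouse samples, all of strain C57BL/6, to single-colour Affymetrix arrays. Normal prostate, lung, intestine, liver, stomach and uterus were dissociated and separated with anti-Prom1 beads into Prom1-positive and Prom1-negative cells (51 samples in 12 groups), prominin-1 being a membrane protein used as a stem cell marker. The 66 tumours of 7 types (3 B-cell lymphomas, 6 skin squamous carcinomas, 9 adenocarcinomas of the uterus, 10 of the prostate and 11 of the stomach, 14 bronchial papillary adenomas and 13 hepatocellular carcinomas) were pieces of frozen tissue, neither dissociated nor sorted, so that tumour state and handling cannot be told apart. The positive and negative groups numbered 4 and 7 in liver, 3 and 4 in stomach, 3 and 5 in intestine, 3 and 7 in lung, 3 and 5 in prostate, and 4 and 3 in uterus. The series mentions conditional Prom1 mutants, but the labels used here give neither genotype nor age, and they do not state that each sample was its own animal; p-values therefore speak only of the spread between the samples at hand. The deposited signals are on a log2 scale, on which a difference of 1 is a factor of 2. Array medians ranged from 3.63 to 4.01 and array upper quartiles from 5.05 to 6.53; a value below the median of its array was taken as not above background. The number of arrays limits the precision, and different probe sets are not compared in level.

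Some arrays stood apart in these genes. Uterine carcinoma 6 had 30 of the 31 genes above the upper quartile of its array, where the other 8 uterine carcinomas had 3 to 6, and in it the mean of 23 hepatocyte enzymes and transporters was 7.95, against 3.47 to 4.15 in the others. Its Alb was 13.35 and its Cps1, the first enzyme of the urea cycle, 8.88, against 2.53 to 3.25 in the others. Counts of calls in fits that include it, and the differences named for its own group, are given with and without it. In normal liver, Prom1-negative samples 1 and 2 and Prom1-positive sample 2 were low in most of the 31 genes, and results are likewise given without them. These samples, like uterine carcinoma 6, were picked by the values of the same genes after they were seen. Fits without them show how far a result rests on them, and the p-values of such fits are no independent test. Of 6 arrays with an upper quartile under 6, 2 were liver Prom1-positive samples (2 and 3), 3 were stomach samples and 1 was a lung Prom1-positive sample.

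Promoters of 5 members are shown first, because the liver results turn on these genes: Alb as a member at nearly the same level in all liver samples, the 3 fibrinogen genes as neighbours in the genome, and C9 as a gene that differed between carcinomas and liver. The sequences are RefSeq's for mouse build GRCm38.p6, from 250 bases before to 50 after the annotated start of each of these 5 genes, 5′ to 3′ on the strand of the gene. Capitals mark matches, on either strand, to the HNF1 half-site GTTAAT, to a C/EBP pattern TTNCNNAAT and to a STAT pattern TTCNNNGAA.
Alb: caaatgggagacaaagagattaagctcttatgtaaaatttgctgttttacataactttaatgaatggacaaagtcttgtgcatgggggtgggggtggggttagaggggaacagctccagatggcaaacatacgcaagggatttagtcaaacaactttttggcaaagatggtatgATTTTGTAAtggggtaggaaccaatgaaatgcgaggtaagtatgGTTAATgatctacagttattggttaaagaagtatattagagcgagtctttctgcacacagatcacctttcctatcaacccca
Fga: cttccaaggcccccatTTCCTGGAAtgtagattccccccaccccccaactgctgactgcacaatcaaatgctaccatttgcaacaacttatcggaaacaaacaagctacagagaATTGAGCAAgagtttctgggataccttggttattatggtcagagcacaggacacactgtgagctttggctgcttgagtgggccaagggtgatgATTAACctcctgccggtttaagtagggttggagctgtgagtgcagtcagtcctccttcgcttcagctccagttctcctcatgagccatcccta
Fgb: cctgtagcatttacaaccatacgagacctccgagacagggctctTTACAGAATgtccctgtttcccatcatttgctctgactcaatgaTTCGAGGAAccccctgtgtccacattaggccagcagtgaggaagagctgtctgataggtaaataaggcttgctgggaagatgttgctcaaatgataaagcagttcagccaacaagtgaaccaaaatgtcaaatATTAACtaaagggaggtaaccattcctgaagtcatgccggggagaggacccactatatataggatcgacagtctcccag
Fgg: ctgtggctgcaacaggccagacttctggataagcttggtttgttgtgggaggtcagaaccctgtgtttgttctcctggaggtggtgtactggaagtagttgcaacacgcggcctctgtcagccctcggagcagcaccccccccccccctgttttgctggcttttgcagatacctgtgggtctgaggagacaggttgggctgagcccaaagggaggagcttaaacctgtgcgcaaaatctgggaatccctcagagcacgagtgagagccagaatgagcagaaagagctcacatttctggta
C9: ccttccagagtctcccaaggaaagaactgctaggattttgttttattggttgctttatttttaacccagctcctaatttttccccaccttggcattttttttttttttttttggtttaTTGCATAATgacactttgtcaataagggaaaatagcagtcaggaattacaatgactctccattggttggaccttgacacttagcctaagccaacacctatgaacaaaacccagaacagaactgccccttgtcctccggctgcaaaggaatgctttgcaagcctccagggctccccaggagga

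They lie at chr5:90460620-90460919 (plus strand) for Alb, chr3:83025903-83026202 (plus) for Fga, chr3:83049814-83050113 (minus) for Fgb, chr3:83007474-83007773 (plus) for Fgg and chr15:6445096-6445395 (plus) for C9. Fga and Fgb each hold 1 match to all 3 patterns, whereas Fgg, the other gene of the same cluster, holds none in this window. Alb holds the HNF1 half-site starting 32 bases before the gene and a C/EBP match starting 76 bases before it. C9 holds 1 C/EBP match. Of RefSeq's windows 28 were used, for 24 of the 31 genes, 20 of them at the annotated gene start and the rest at the start of another transcript. Ttr, on chromosome 18, was left out. The HNF1 half-site was found in 7 of these 24, against 7.1% of 32851 promoters of the same length; the C/EBP pattern in 8, against 12.22%; and the STAT pattern in 5, against 8.3%. A member counted if any of its windows matched, whereas the shares over all promoters are of single windows. A match is a run of letters, not a measured site.

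In normal cells the members were liver transcripts. All 31 were higher in liver than in the mean of the other 5 tissues (limma with Benjamini-Hochberg adjustment, the highest adjusted p being 8.3e-10 for Apob), where 21.3% of all 14081 genes tested were higher. The median difference was 7.73, against -0.17 over all genes. All 31 passed the filter on dim genes in every fit, which they could do through the liver samples alone. Outside the liver 21 members were below the array median in most of the 40 samples, so that background limits the size of their differences. The difference was 9.80 (SE 0.23) for Fgb, the fibrinogen beta chain, 9.65 (SE 0.16) for Fgg and 9.45 (SE 0.24) for Alb, the main protein of plasma. With every value below the median of its array raised to that median, these came to 8.78, 8.97 and 9.09, so their order is not read, and the median of the members came to 7.38. Cfb, the factor B of the alternative complement pathway, was above the array median in all 40 samples and differed by 3.50 (SE 0.33), and Cp, the copper-carrying ferroxidase ceruloplasmin, was below it in 8 and differed by 4.82 (SE 0.32). Median centring of the arrays left all 31 higher, while the genes called went from 2993 higher and 5228 lower to 3899 and 4124.

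For 25 of the 31 genes the lowest of 11 liver samples lay above the highest of the 40 samples of other tissues, an arrangement that 1.22% of all genes showed. The 6 that overlapped were Hp, Apoa1, Apob, Itih2, Cp and Cfb. Of the 50 further plasma protein genes listed, 47 were tested and all 47 were higher in liver, with a median difference of 6.42. Leaving out the 3 low liver samples kept all 31 calls, with a median difference of 8.20.

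**Figure D1:**
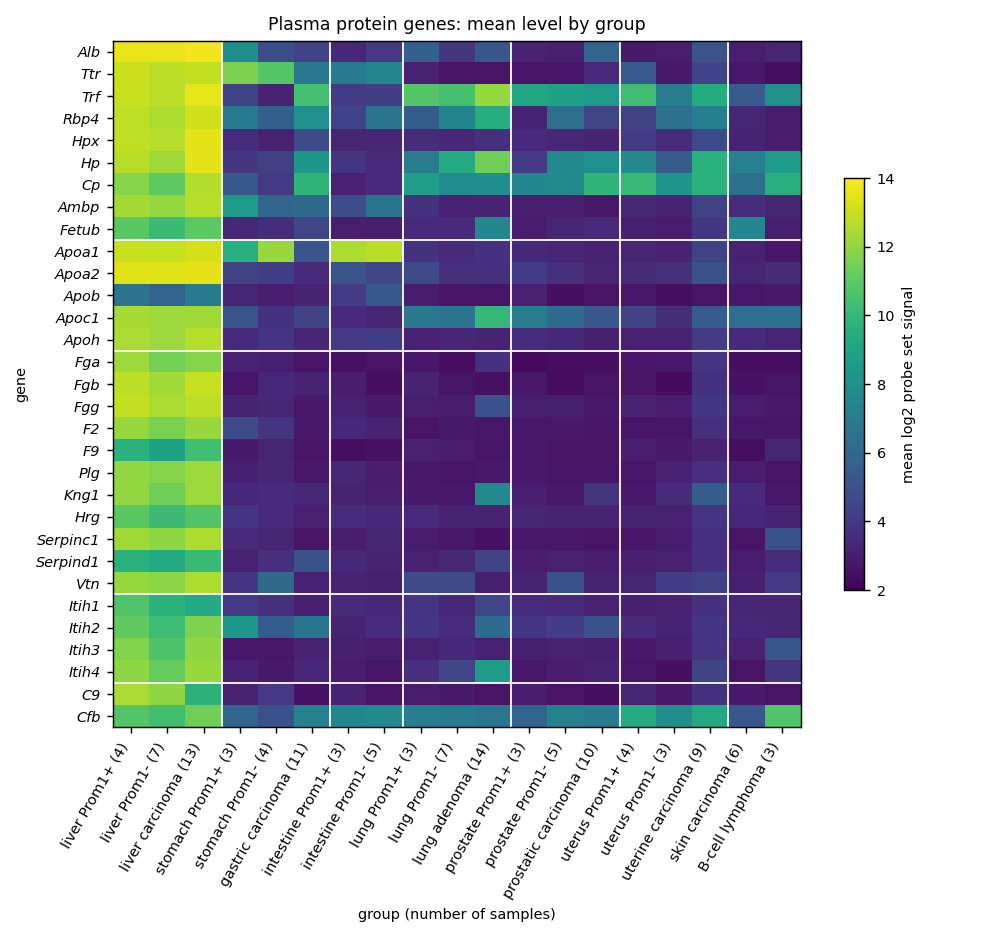
Mean log2 probe set signal of the 31 genes (rows, ordered by role) in the 19 groups (columns, with the number of samples; Prom1+ and Prom1- are the sorted cells). The 3 liver columns are bright in all rows but Apob, whose means there are 5.87 to 6.89, and bright cells outside them include Apoa1 in intestine and stomach, Ttr in stomach and Trf and Hp in lung adenomas.

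Liver cells sorted for Prom1 carried these transcripts in both fractions. Alb was 13.44, 13.67, 13.68 and 13.76 in the 4 Prom1-positive samples and 13.31 to 13.75 (median 13.69) in the 7 Prom1-negative samples. The groups overlapped throughout, and the difference was 0.00 (SE 0.42, 95% interval -0.85 to 0.86; limma adjusted p = 0.997). This SE rests on the spread shared by all 12 sorted groups, not on liver alone. The Alb values lie near the highest value of any array, 14.18, and the part of the upper end of the scale was not tested. None of the 31 genes passed the test, while 20.7% of all genes did (4.2% higher, 16.5% lower). Of the members, 2 had an unadjusted p under 0.05, namely Fga (0.75, 95% interval 0.02 to 1.47) and Itih3 (1.09, 95% interval 0.02 to 2.16). The median difference of the members was 0.43, against -0.12 over all genes. Median centring moved the median of all genes to 0.42 and that of the members to 0.97, with 10 members higher; it also moved the genes called from 591 higher and 2323 lower to 3253 and 1062 of 14081.

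Other cell types moved with the sort. Of 10 Kupffer cell and macrophage markers, 8 were lower in Prom1-positive cells, as were 8 of 10 liver endothelial and 9 of 10 T and NK cell markers. The mean of the 10 Kupffer cell markers was 10.34 to 11.33 in Prom1-negative samples, and 10.19, 7.94, 8.44 and 7.41 in Prom1-positive samples 2 to 5. That of the T and NK cell markers was 6.69 to 8.64 in negative and 3.56 to 3.83 in positive samples. Prom1-positive sample 2 thus was near the negative samples in the Kupffer cell markers, and its endothelial mean of 11.20 was the highest of all 11. The mean of 23 hepatocyte enzymes and transporters was 8.18 to 10.89 in negative and 9.33 to 11.24 in positive samples, and only Pck1 of the 23 was below the array median in every liver sample. The part of other cells in the members' differences was not tested, and in such mixed samples fewer hepatocytes and less RNA per hepatocyte cannot be told apart.

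Samples of one fraction were not alike in these genes. The median of the 31 genes on an array was 10.68, 10.27, 12.14, 12.52, 12.46, 12.61 and 12.61 in Prom1-negative samples 1 to 7, and 11.05, 12.94, 12.63 and 12.53 in Prom1-positive samples 2 to 5. Negative samples 1 and 2 and positive sample 2 were the low ones. Fgb was 11.05, 10.77, 12.32, 13.24, 12.77, 13.01 and 13.04 in the negative samples, and 11.75, 13.43, 13.04 and 12.96 in the positive samples. Itih3, a hyaluronan-binding heavy chain, was 8.39, 7.66, 10.81, 11.87, 11.92, 11.83 and 11.95 in the negative samples and 9.42, 13.13, 12.08 and 12.27 in the positive samples. The same 3 samples were lowest for both genes, and they were lowest for Alb too, at 13.55, 13.31 and 13.44, against 13.65 to 13.76 in the others. Their hepatocyte enzyme means, 9.24, 8.18 and 9.33, were also the 3 lowest of the 11.

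The result of the sort rested on these samples. They were picked by these same values, so the fits without them show that dependence and are no independent test. Without Prom1-positive sample 2, 9 members were higher in Prom1-positive cells (F2, F9, Fetub, Fga, Hrg, Itih1, Itih2, Itih3 and Kng1; 31.7% of all genes were called), the largest being Itih3 at 1.86 and Itih1 at 1.72. Without all 3 low samples, where 25.3% of all genes were called (860 higher and 2689 lower), 2 members were higher, Itih1 by 0.90 (limma adjusted p = 0.00611) and Itih3 by 0.82 (limma adjusted p = 0.0145), and the median difference was 0.26. With Prom1-negative samples 1 to 3 left out, whose code numbers lie apart from those of the other 8, none passed, where 10.1% of all genes did, and the median was -0.16. With neighbouring codes as a block, where 1401 genes were called, the members' median was 0.07.

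**Figure D2:**
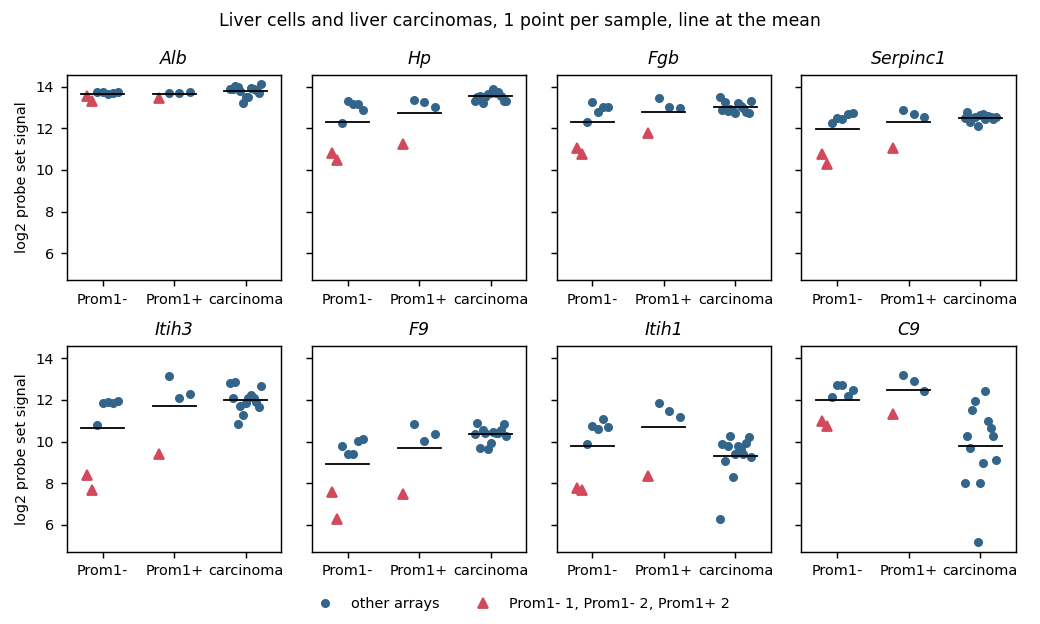
Log2 probe set signal (y axis) of 8 members in liver Prom1-negative cells, liver Prom1-positive cells and hepatocellular carcinomas (x axis), 1 point per sample with a line at the group mean; triangles are Prom1-negative samples 1 and 2 and Prom1-positive sample 2. The triangles lie lowest among liver samples, by little in Alb and by much in Itih3 and F9, and the carcinomas range from 5.17 to 12.42 in C9.

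Hepatocellular carcinomas carried all of these transcripts. All 31 genes were higher in them than in the mean of the other 6 tumour types (limma adjusted p at most 4.82e-13), where 25% of all 13456 genes were higher. The median difference was 7.80, against -0.19 over all genes, and 7.91 without uterine carcinoma 6, again with 31 called. In the other tumours 21 members were below the array median in most of the 53 samples. The difference was 10.10 (SE 0.40) for Fgb, 9.82 (SE 0.37) for Apoa2 and 9.78 (SE 0.42) for Hpx, the heme scavenger hemopexin; with values below the array median raised to it these came to 9.05, 9.42 and 9.32. Cfb (3.70, SE 0.35) and Cp (3.73, SE 0.38) were above the array median in all 53. Of the further plasma protein genes, 47 of 47 were higher, with a median of 6.47. For 24 members every carcinoma of the liver lay above every other tumour, as did 1.91% of all genes. Without uterine carcinoma 6 this held for 28 members, against 2.39% of all genes, and Fetub, Cp and Cfb overlapped.

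Against normal liver cells, with both fractions weighted equally, 4 of the 31 genes differed in the 13 carcinomas, where 47.2% of all genes did (29.2% higher, 18% lower). F9, coagulation factor IX, and Cp were higher, and C9, the pore-forming last component of complement, and Itih1 were lower. The median difference of the members was 0.42, against 0.07 over all genes. Median centring moved the median of all genes to -0.22, that of the members to 0.13 and the genes called from 4285 higher and 2636 lower to 2616 and 4902. Haptoglobin, which binds free hemoglobin, just missed the threshold: Hp was 13.23 to 13.89 (median 13.53) in carcinomas and 10.48 to 13.37 in liver samples, a difference of 1.03 (SE 0.45; limma adjusted p = 0.0506). Alb was 13.19 to 14.13 (median 13.88) in carcinomas. For 21 members the carcinoma mean was over 12, near the highest value of any array, 14.18.

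C9 had the largest difference of the 31 genes between carcinomas and normal liver. It was 10.75 to 12.71 (median 12.16) in Prom1-negative samples and 11.31, 13.18, 12.91 and 12.43 in Prom1-positive samples. In carcinomas it was 5.17 (carcinoma 6) to 12.42 (carcinoma 9), with a median of 10.26; carcinomas 7, 8 and 13 were at 8.03, 8.97 and 9.10. Of the carcinomas, 9 lay below every liver sample, while carcinomas 4, 5, 9 and 10 lay within the liver range. The difference was -2.46 (SE 0.44; limma adjusted p = 1.77e-06), and without the 3 low liver samples it was -2.88 (limma adjusted p = 4.2e-07). The call held in every alternative run, of which the fit without the 3 low liver samples is no independent test.

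Itih1 was 7.66 to 11.08 (median 10.59) in Prom1-negative samples, 8.35, 11.83, 11.48 and 11.18 in Prom1-positive samples and 6.27 to 10.28 (median 9.63) in carcinomas. The groups overlapped, with carcinoma 1 lowest of all. The 3 low liver samples were picked for low values of these genes, so the fit without them is no independent test. The difference was -0.93 (SE 0.33; limma adjusted p = 0.0142) and grew to -1.73 without the 3 low liver samples (limma adjusted p = 1.35e-06), but it was not called without carcinoma 1 (-0.67; limma adjusted p = 0.0629), without Prom1-positive sample 3 (-0.74; limma adjusted p = 0.0704), with the upper quartile as a covariate (-0.85; limma adjusted p = 0.0503), with liver samples and carcinomas alone (-0.93; limma adjusted p = 0.128) or against Prom1-negative cells alone (-0.46; limma adjusted p = 0.34).

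Cp and F9 were the members that were higher in carcinomas, and both calls rested on the low liver samples. Cp was 12.15 to 13.21 (median 12.56) in carcinomas and 9.15 to 12.01 (median 11.77) in Prom1-negative samples, and 10.04, 12.84, 12.29 and 12.18 in Prom1-positive samples. The difference was 1.20 (SE 0.46; limma adjusted p = 0.0263). F9 was 9.65 to 10.91 (median 10.41) in carcinomas, 6.26 to 10.13 (median 9.41) in Prom1-negative samples and 7.47, 10.84, 10.03 and 10.34 in Prom1-positive samples, a difference of 1.04 (SE 0.30; limma adjusted p = 0.00263). Both calls were lost without the 3 low liver samples, with differences of 0.52 for Cp (limma adjusted p = 0.413) and 0.27 for F9 (limma adjusted p = 0.453), and without Prom1-positive sample 2 alone. Array weights ended both calls too, at 0.85 for Cp (limma adjusted p = 0.114) and 0.52 for F9 (limma adjusted p = 0.0867), and median centring that of Cp (0.91; limma adjusted p = 0.0878). Leaving out uterine carcinoma 6, which enters through the shared estimate of the spread, brought the calls to 8, adding Hp, Hpx, Itih3 and Serpinc1.

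**Figure D3:**
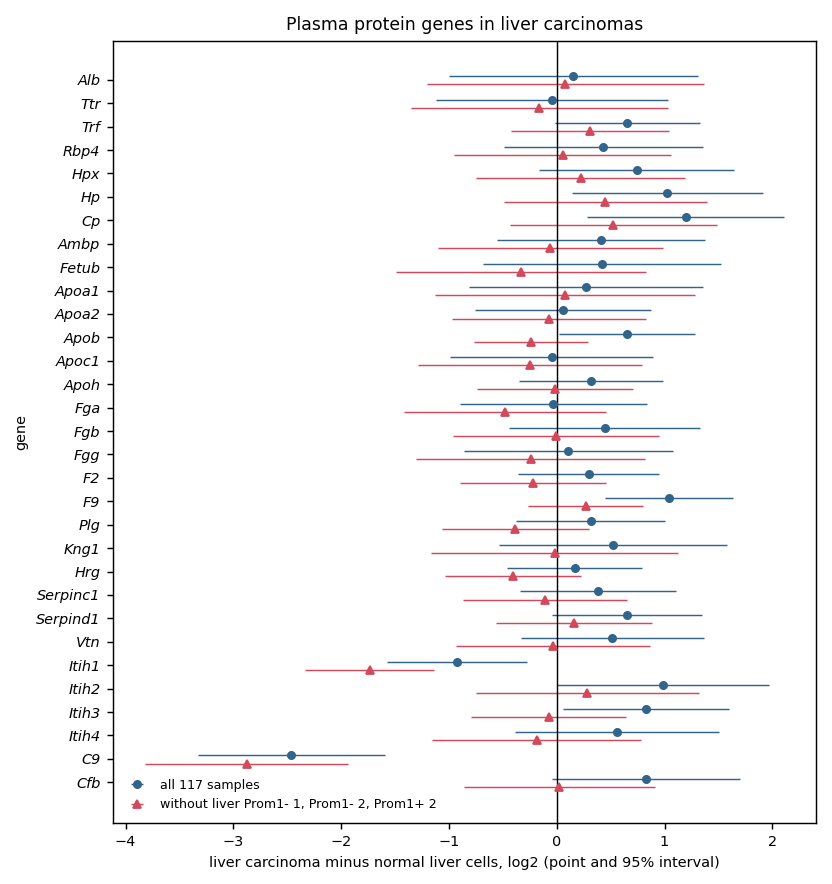
Difference between hepatocellular carcinomas and normal liver cells (log2, x axis) for the 31 genes, with 95% intervals; circles are the fit of all 117 samples and triangles the fit without liver Prom1-negative samples 1 and 2 and Prom1-positive sample 2. C9 (-2.46) and Itih1 (-0.93) lie below 0 in both fits, while the differences of F9 and Cp shrink from 1.04 and 1.20 to 0.27 and 0.52.

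C6 and C8b, which join C9 in the membrane attack complex, were lower in carcinomas too. Of 47 further plasma protein genes, 8 were higher and 10 lower in carcinomas, with a median difference of 0.11. Over all genes tested, 29.2% were higher and 18% lower. C6 fell by 3.48 (SE 0.49; limma adjusted p = 4.72e-09), C8b fell by 3.16 (SE 0.35; limma adjusted p = 1.07e-12) and Masp1, a protease of the lectin pathway, fell by 2.05. C8a, another partner, chosen after its values were seen, fell by 1.35 (limma adjusted p = 0.00096), and the difference of C8g was -0.62 (limma adjusted p = 0.0957). C6 was 3.34 to 9.84 in carcinomas and 8.92 to 10.92 in liver samples, and C8b was 3.92 to 9.49 and 7.15 to 11.94, so both overlapped. Carcinoma 6 was lowest in C6, C8b, C8a and C9. C6, C8b and Masp1 were named for the 3 largest falls on the list. Other complement genes on it, such as C5, are not reported here, and the complex as a whole was not tested. Apoa4 (1.99), Fgl1 (1.86) and Apoc2 (1.77) were the plasma protein genes that rose most.

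Of 13 further acute phase genes tested, 9 were higher and 2 lower in carcinomas, with a median of 1.60. Fgl1 stands on this list too. For this and the lists that follow, the shares over all genes were 29.2% higher and 18% lower. Lcn2, the iron-siderophore binder lipocalin 2, rose by 7.28 (SE 0.42) and Orm2 by 3.74 (SE 0.53), whereas Hamp, the iron hormone hepcidin, fell by 4.81 (SE 0.59) and Socs3 by 2.12 (SE 0.31). Orm2 ranged from 3.40 in carcinoma 6 to 11.91 in carcinoma 3, and from 2.71 to 7.34 in liver samples, so the groups overlapped. Of 15 hepatocyte transcription factors tested, 7 were higher (Prox1 2.37, Foxa3 1.76, Onecut2 1.76) and Nr1i3 was lower (-0.98). Of 22 hepatocyte enzymes and transporters tested, 5 were lower, led by Cyp2f2 (-2.95), Hal (-2.55) and Cyp2e1 (-1.74), and the median was -0.32. All 10 Kupffer cell markers, 9 of 10 endothelial and 9 of 10 T and NK cell markers were lower in carcinomas. The mean of the Kupffer cell markers was 5.10 to 10.32 in carcinomas and that of the endothelial markers 5.12 to 7.54, against 7.41 to 11.33 and 7.09 to 11.20 in liver samples, and the part of those cells in these differences was not tested.

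Between carcinomas the 31 genes varied unequally. The median SD over the 13 tumours was 0.26, against 0.44 over all 13456 genes, and 0.22 for the 21 members with a mean over 12, against 0.29 for the other 95 genes with such a mean. The part of the upper end of the scale in these SDs was not tested. The lowest SD was that of Hpx (0.14), and 25 members had no tumour more than 1 from the median of the 13. The 6 with an SD over 0.5 were C9 (1.96), Hrg (1.34), Itih1 (1.06), Apob (0.76), Fetub (0.62) and Itih3 (0.58). Hrg, the histidine-rich glycoprotein, was 7.14 in carcinoma 7 and 8.82 in carcinoma 6, against 10.27 to 11.98 in the others. The low values gathered in few tumours: carcinoma 6 was more than 1 under the median in Apob, Itih1, C9 and Hrg, carcinoma 7 in Fetub, Apob, C9 and Hrg, and carcinoma 1 in Apob, Itih1 and C9. In 5 carcinomas (2, 3, 5, 11 and 12) no member was that far under its median. Carcinomas 1, 6 and 7 also had the lowest means of the hepatocyte enzymes and transporters. These were 8.27, 8.54 and 9.22, against 9.53 to 11.05 in the other carcinomas, and a link to the low members was not tested.

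**Figure D4:**
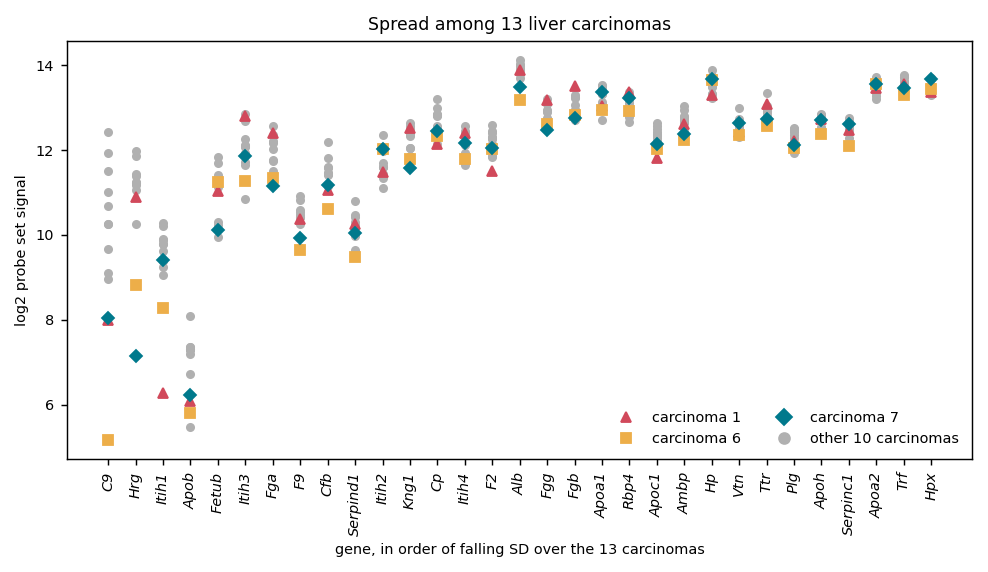
Log2 probe set signal (y axis) of the 31 genes (x axis, in order of falling SD) in the 13 hepatocellular carcinomas, 1 point per tumour; carcinomas 1, 6 and 7 have marks of their own. C9 and Hrg, at the left, spread most (SD 1.96 and 1.34) and Hpx, at the right, least (0.14).

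Outside the liver, 12 of the 31 genes were above the upper quartile of the array in every sample of at least 1 of 16 groups (93 samples): Alb, Ttr, Trf, Hp, Ambp, Apoa1, Apoc1, Itih2, Itih4, Cp, Cfb and Rbp4. The other 19 had no such group. Levels differed among the 5 normal tissues for 17 members, where 82% of all genes differed, and among the 6 other tumour types for 23, where 87% did (limma F tests), and for 23 without uterine carcinoma 6, where 86.7% did. The share of members was thus not above that of all genes.

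**Figure D5:**
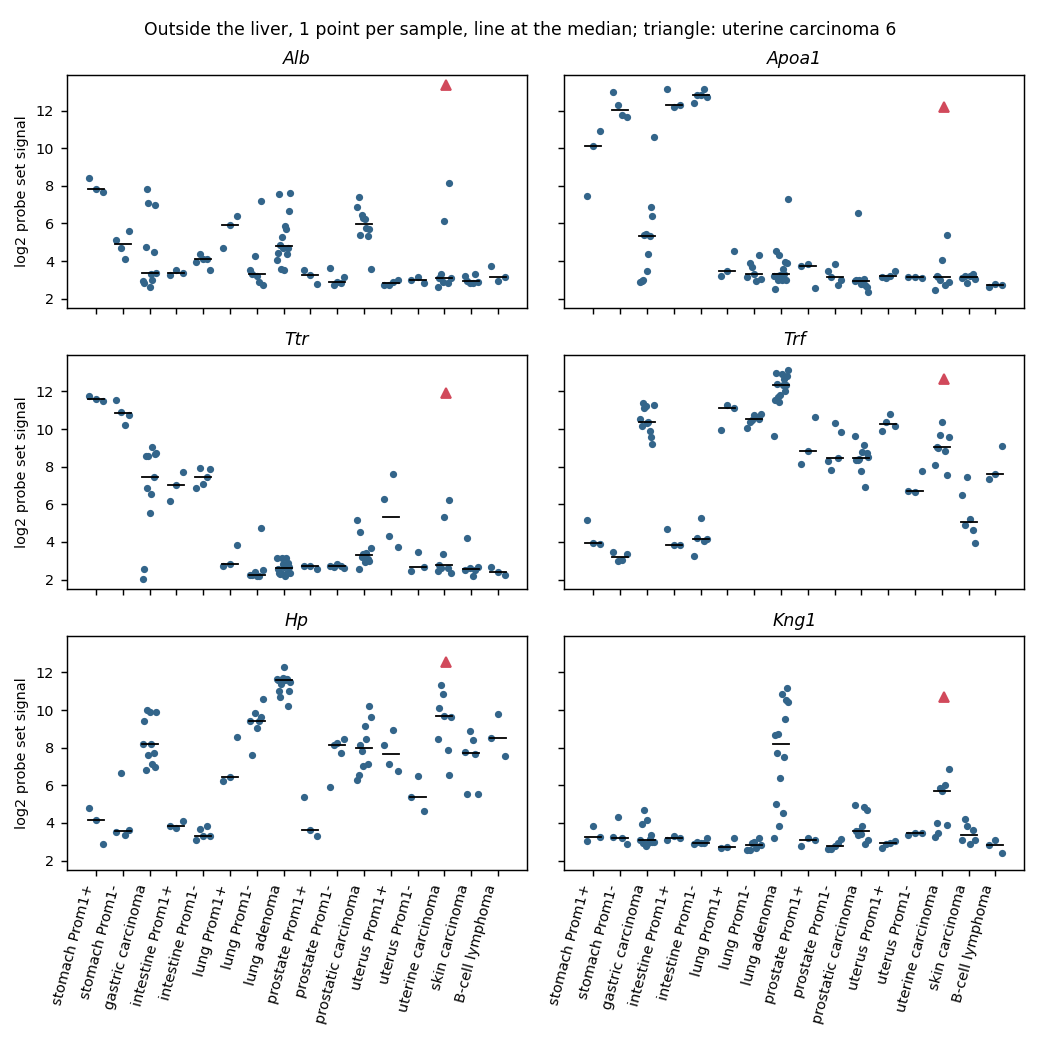
Log2 probe set signal (y axis) of Alb, Apoa1, Ttr, Trf, Hp and Kng1 in the 16 groups outside the liver (x axis), 1 point per sample with a line at the group median; the triangle is uterine carcinoma 6. Apoa1 is high in all intestine samples (12.20 to 13.15) and Prom1-negative stomach cells (11.68 to 12.97), and uterine carcinoma 6 stands above the other uterine tumours in Alb (13.35) and Apoa1 (12.18).

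In the stomach 4 members differed between Prom1 fractions, 3 being higher in Prom1-positive cells and 1 lower, where 3.17% of all genes were called (2.29% higher, 0.888% lower; 322 and 125 genes, and 450 and 329 with repeated quantile normalization). Alb was 8.40, 7.84 and 7.66 in Prom1-positive cells and 5.12, 4.67, 4.09 and 5.60 in Prom1-negative cells, without overlap, a difference of 3.09 (SE 0.52; limma adjusted p = 9.06e-05) that was not called with array weights (2.97; limma adjusted p = 0.0564). Itih2 was 8.52, 8.58 and 8.12 against 6.61, 3.73, 5.52 and 6.07, also without overlap, a difference of 2.93 (SE 0.59; limma adjusted p = 0.00132). It was not called without the arrays of low upper quartile, 3 of these 7 (2.45; limma adjusted p = 0.101). Apoa1, the main protein of high-density lipoprotein, went the other way. It was 7.48, 10.13 and 10.93 in Prom1-positive and 12.97, 12.27, 11.76 and 11.68 in Prom1-negative cells, a difference of -2.66 (SE 0.45; limma adjusted p = 0.000109). Ambp, the precursor of alpha-1-microglobulin and bikunin, was 9.84, 7.65 and 7.92 against 5.04, 3.90, 6.29 and 8.46; these groups overlapped, and the difference of 2.55 (SE 0.67; limma adjusted p = 0.0218) was not called without any one of 3 samples (negative sample 1, the earlier of the negative samples numbered 2, and positive sample 1), with array weights (1.29; limma adjusted p = 0.32) or with neighbouring codes as a block (2.44; limma adjusted p = 0.0642). Of 6 genes listed as bile duct markers, 1 was higher in Prom1-positive stomach cells (means of 10.40 to 10.72 against 7.84 to 9.99). Their means were also high in Prom1-negative intestine cells (8.63 to 10.27), so they are not read as duct cells here. What part other cells had was not tested. Ttr, the thyroxine carrier, was 10.19 to 11.76 in all 7 stomach samples. In the intestine limma called no member, where 0.199% of all genes were called (0% higher, 0.199% lower); Ambp (-1.74) and Rbp4 (-2.28) had an unadjusted p under 0.05.

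In the prostate 2 members fell with Prom1, where 9.19% of all genes were called (3.21% higher, 5.98% lower; 452 and 842 genes, and 721 and 843 with repeated quantile normalization). Hp was 5.38, 3.61 and 3.28 in Prom1-positive and 5.91, 8.15, 8.24, 7.73 and 8.47 in Prom1-negative cells, a difference of -3.61 (SE 0.71; limma adjusted p = 0.000334). Rbp4, the plasma carrier of retinol, was 3.52, 3.57 and 2.42 against 6.21 to 6.50, a difference of -3.19 (SE 0.66; limma adjusted p = 0.000697), or -2.65 with the Prom1-positive values, all below the array median, raised to it. The groups did not overlap in either gene. Of 10 T and NK cell markers 8 were lower in Prom1-positive cells (means of 4.04 to 4.15 against 6.25 to 7.38), as were 4 of 8 fibroblast markers (5.03 to 6.69 against 7.08 to 8.14), and their part in these differences was not tested.

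In the uterus 3 members were higher in Prom1-positive cells, where 10.9% of all genes were called (5.31% higher, 5.64% lower). Trf, the iron carrier transferrin, was 9.92, 10.36, 10.81 and 10.16 in Prom1-positive and 6.72, 6.67 and 7.78 in Prom1-negative cells, a difference of 3.25 (SE 0.51; limma adjusted p = 9.73e-06). Ttr was 6.30, 4.31, 7.61 and 3.72 against 2.45, 3.47 and 2.66, a difference of 2.62 (SE 0.53; limma adjusted p = 0.000513), or 1.76 with the Prom1-negative values, all below the array median, raised to it. Hp was 8.16, 7.16, 8.95 and 6.78 against 5.36, 6.47 and 4.65 (2.27, SE 0.75; limma adjusted p = 0.0391). None of the 3 overlapped between fractions, but the call of Hp was lost without any one of 4 samples (samples 1 and 3 of either fraction). With all samples kept, the call was also lost under repeated quantile normalization (2.29, limma adjusted p = 0.071) or median centring (2.19, limma adjusted p = 0.0713). A block of neighbouring codes ended it too (2.13, limma adjusted p = 0.0794). Of 10 Kupffer cell and macrophage markers 8 were higher in Prom1-positive cells (means of 7.55 to 8.74 against 5.06 to 5.37), while 5 of 10 T and NK cell markers (3.65 to 3.74 against 5.45 to 5.61) and 4 of 8 fibroblast markers (8.03 to 8.96 against 9.51 to 9.82) were lower; their part in these differences was not tested.

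In the lung 1.51% of all genes were called (0.391% higher, 1.11% lower). Of 212 called genes 55 were higher, and after median centring 69 were higher and 90 lower. Alb alone of the members passed (1.80, SE 0.47, limma adjusted p = 0.0294). It was 4.71, 5.92 and 6.42 in Prom1-positive and 2.75 to 7.19 (median 3.30) in Prom1-negative cells, which overlapped. The call was lost without any one of 7 samples. Array weights (1.34, limma adjusted p = 0.293) and leaving out the arrays of low upper quartile (1.43, limma adjusted p = 0.302) ended it too. So did a block by title number (2.33, limma adjusted p = 0.133) and one of neighbouring codes (1.25, limma adjusted p = 0.316). Of 10 macrophage markers 6 were higher in Prom1-positive lung cells, and 6 of 10 T and NK cell markers were lower; their part was not tested. A test of unequal effects of the sort between tissues, added after the values were seen, called 8 members (Alb, Ttr, Trf, Hp, Ambp, Apoa1, Itih2 and Rbp4), where 21.2% of all genes were called.

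Bronchial papillary adenomas had 12 members higher and 1 lower than normal lung cells, where 43.1% of all genes were called (23.4% higher, 19.7% lower); without uterine carcinoma 6 the counts were the same, where 43% were called. Median centring gave 11 members higher and 1 lower, and moved the genes called from 3425 higher and 2890 lower to 2727 and 3788. Kng1, the kininogen that releases bradykinin, was 3.20 to 11.18 (median 8.19) in 14 adenomas and 2.56 to 3.21 in 10 lung samples, a difference of 4.88 (SE 0.56; limma adjusted p = 1.31e-12). All 10 lung values were below the array median, so the difference is limited by background: with every value below that median raised to it, the difference was 4.01. Only the lowest adenoma fell inside the lung range. Itih4 (4.59, SE 0.50), Fetub (4.04, SE 0.58), Apoc1 (3.35, SE 0.49), Hp (3.18, SE 0.47) and Rbp4 (2.98, SE 0.48) were also higher, Itih4 and Fetub being below the array median in 5 and 8 of the 10 lung samples, and Vtn fell by 1.80 (SE 0.45). Markers of other cells were lower in the adenomas: 9 of 10 for T and NK cells (means of 3.79 to 5.52 against 4.77 to 9.05), 8 of 10 for macrophages (5.20 to 7.09 against 5.52 to 9.53), 8 of 10 for endothelium (4.68 to 6.14 against 4.60 to 7.61) and 7 of 8 for fibroblasts (4.86 to 5.70 against 6.03 to 8.42). Their part in the members' differences was not tested. Fgg and Fga, but not Fgb, were high together in adenomas 6 and 10. Fgg was 9.33 and 9.34 there and 2.98 to 5.94 in the others, and Fga was 7.49 and 7.63 there, whereas Fgb was 2.28 to 2.88 in all 14. Fgb is the neighbour of Fga whose promoter, shown above, holds the same 3 patterns, while that of Fgg holds none of them. A link between these patterns and the levels was not tested. The difference of Fga (1.10, SE 0.46; limma adjusted p = 0.0414) was not called without adenoma 6, without adenoma 10 or without any one of 6 lung samples, nor with median centring (0.95; limma adjusted p = 0.0877) or array weights (0.94; limma adjusted p = 0.0509).

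Gastric carcinomas had 7 members higher and 5 lower than normal stomach cells, where 58.1% of all genes were called (35% higher, 23% lower). This split turned with the scaling: median centring gave 6 members higher and 14 lower, and moved the genes called from 5135 higher and 3379 lower to 2745 and 6930 and the median of all genes to -0.46; repeated quantile normalization gave 7 and 6 members and 3737 and 4502 genes. Trf was 9.20 to 11.40 (median 10.40) in 11 carcinomas and 2.97 to 5.15 in 7 stomach samples, a difference of 6.69 (SE 0.40; limma adjusted p = 1.6e-28). Cp was 8.25 to 11.40 (median 9.96) against 3.72 to 6.29 (5.22, SE 0.54), and neither gene overlapped. Hp rose by 4.23 (SE 0.52). Apoa1 went from 7.48 to 12.97 in stomach samples to 2.89 to 10.60 (median 5.34) in carcinomas, where only carcinoma 11, at 10.60, reached the normal range (-5.69, SE 0.64; limma adjusted p = 4.62e-13). Ttr fell by 4.45 (SE 0.63) and Alb by 1.94 (SE 0.68), against the mean of both fractions. Alb differed by 3.09 between Prom1-positive and Prom1-negative stomach cells. Its fall thus depends on the fraction taken as normal, and neither fraction alone was tested as reference. Without uterine carcinoma 6 the calls were 7 higher and 10 lower, where 58.1% of all genes were called. Of 10 macrophage markers 6 were higher in the carcinomas (means of 4.68 to 7.04 against 2.95 to 4.23), as were 6 of 8 fibroblast markers (6.65 to 8.18 against 3.71 to 5.62), and their part was not tested.

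Prostatic carcinomas had 4 members called, where 36.7% of all genes were (20.9% higher, 15.8% lower): Alb (2.78, SE 0.67), Cp (2.21, SE 0.53) and Hp (2.13, SE 0.52) were higher and Apoc1 (-1.39, SE 0.55) was lower, the call of Apoc1 being lost without any one of 7 samples. All 8 normal values of Alb were below the array median, and with every such value raised to it the difference was 2.17. Hp differed by -3.61 between the Prom1-positive and Prom1-negative cells of the prostate. Its difference in carcinomas thus depends on the fraction taken as normal, and neither fraction alone was tested as reference. Median centring gave 3 higher and 1 lower as well, but moved the genes called from 3062 higher and 2323 lower to 2323 and 3146. Without uterine carcinoma 6, 3 members were higher and 2 lower, Vtn being added (-0.96; limma adjusted p = 0.0278), where 36.5% of all genes were called. T and NK cell markers were lower in the prostatic carcinomas in 7 of 10 and B cell markers in 5 of 5, and 3 of 8 fibroblast markers were higher; their part was not tested.

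Uterine carcinomas had 7 members higher, where 28.8% of all genes were called (16.4% higher, 12.4% lower), but without carcinoma 6 this came to Hp and Kng1, where 26.7% were called. Hp was 6.56 to 12.55 (median 9.68) in the 9 uterine carcinomas and 4.65 to 8.95 in the 7 uterus samples, which overlapped (3.04, SE 0.54; limma adjusted p = 4.06e-06); without carcinoma 6 the difference was 2.68 (limma adjusted p = 4.36e-05). Kng1 differed by 2.37 with carcinoma 6 and by 1.73 without it (limma adjusted p = 0.0231 without it). Kng1 was below the array median in all 7 uterus samples. Of the macrophage and of the fibroblast markers 3 each were lower in the carcinomas, and their part was not tested. Against the mean of both fractions, Hp was thus higher in tumours of all 4 of these organs. Neither fraction alone was used as the reference in these organs. A test of unequal tumour differences between the 5 organs, added after the values were seen, called 20 members, where 77.9% of all genes were called. Without uterine carcinoma 6 it called 25, where 77.5% of all genes were called.

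The skin carcinomas and lymphomas have no matched normal cells. Fetub, a member of the cystatin family, was 2.74, 10.12, 5.19, 11.17, 4.85 and 11.38 in the 6 skin carcinomas, 3 of them near the liver carcinoma range of 9.95 to 11.83 and 3 far below it. Cfb was 10.54, 10.77 and 10.98 in the 3 lymphomas, against 10.61 to 12.20 in liver carcinomas, so that the 2 tumour types overlapped. Alb was 2.93, 3.16 and 3.74 in the lymphomas, all under 4.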

How the data were processed

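The authors deposited log2 probe set signals, 1 column per array; per the submitters' processing notes RMA and Partek 6.6 were used, with settings and any batch correction not given in the sources used here. From these values each gene was read from 1 probe set (single gene name, highest mean over 117 arrays). Genes above the array median on at least 3 arrays entered a linear model of group means in limma 3.58.1 under R 4.3.3 (lmFit, then eBayes), with two-sided tests, Benjamini-Hochberg adjustment over all genes tested and a threshold of 0.05; separate fits held the 51 sorted samples, all 117 samples and the 66 tumours. Tumours were set against the mean of both sorted fractions. The scripts were tested on simulated data. Members and lists were chosen with earlier results of these data known. Any member could be named, with up to 8 called members per direction and comparison in detail; of other lists, the 3 called genes with the largest rise and the 3 with the largest fall. Title numbers did not pair the samples: the deviations of same-numbered samples correlated above 0.1 in 6 of 19 pairs. Those of samples with neighbouring codes did so in 10 of 13 pairs, 3 of 3 in liver, and a block of such codes was an alternative. Alternatives changed the probe set rule, the filter on dim genes, the normalization, array weights, the samples fitted, the normal reference and a block, and left out each sample in turn. Values below the array median were also raised to it, an alternative added after seeing the data. Promoter sequences came from RefSeq (GRCm38.p6).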

Additional observations from a re-analysis of the deposited data

Results flagged for a closer look

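In groups of 4 to 10 samples, the highest or lowest sample was set against Dixon's critical value at 95%; 61 of 310 pairs of gene and group passed it, and chance passes about 1 in 20. The genes of a sample are not independent, so the pairs are not separate events. Uterine carcinoma 6 stood above the other uterine carcinomas in Ttr (11.92), Hpx (12.74), Fetub (8.62), Ambp (11.31), Apoa1 (12.18), Apoa2 (12.45), Apoc1 (10.93), Apoh (10.73), Fga (10.72), Fgb (12.19), Fgg (11.94), F2 (10.08), F9 (7.78), Plg (10.17), Serpinc1 (11.04), Serpind1 (7.66), Itih1 (7.70), Itih2 (9.27), Itih3 (10.19), Itih4 (10.47), Kng1 (10.71), C9 (9.52), Vtn (11.04) and Hrg (8.11). Liver Prom1-positive sample 2 stood below the other 3 in Trf (11.99), Hpx (11.37), Hp (11.24), Fetub (9.10), F2 (10.69), Plg (9.99), Serpinc1 (11.05) and Rbp4 (11.96). Prostatic carcinoma 10 stood apart in Alb (3.58), Hpx (3.90), Fetub (4.19), Itih3 (3.77), Itih4 (5.08) and Cp (7.76). The earlier stomach Prom1-negative sample numbered 2 stood apart in Hp (6.64), Apoh (5.80), Fga (4.09), Fgb (5.85), Plg (4.55) and C9 (7.43). Lung Prom1-negative sample 6 stood above the others of its group in Alb (7.19), Ttr (4.76), Hpx (4.05), Apoa2 (5.17) and Fgb (3.51). Prostate Prom1-negative sample 1 stood apart in Hp (5.91), Fetub (3.05) and Cp (5.87). Prostatic carcinoma 3 stood apart in Apoa1 (6.57) and Apob (3.34). The later stomach Prom1-negative sample numbered 2 stood apart in Hpx (3.57) and Itih1 (4.19). Uterus Prom1-positive sample 4 stood apart in Plg (3.03) and Itih3 (3.06). Intestine Prom1-negative sample 5 stood apart in Itih1 (4.17). Intestine Prom1-negative sample 6 stood apart in Hrg (3.87). Skin carcinoma 2 stood apart in Ttr (4.23).

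The difference between Prom1 fractions was unequal between the 6 tissues, by a limma F test of the interaction over all genes, for Alb (adjusted p = 0.000364), Ttr (adjusted p = 0.0204), Trf (adjusted p = 0.00217), Hp (adjusted p = 0.000213), Ambp (adjusted p = 0.018), Apoa1 (adjusted p = 0.00182), Itih2 (adjusted p = 0.0187) and Rbp4 (adjusted p = 0.00139). The difference between tumour and normal cells was unequal between the 5 organs, by the same kind of limma test, for Alb (adjusted p = 6.01e-05), Ttr (adjusted p = 4.79e-07), Trf (adjusted p = 8.66e-22), Hp (adjusted p = 0.000302), Fetub (adjusted p = 0.000132), Apoa1 (adjusted p = 1.18e-10), Apoa2 (adjusted p = 0.0134), Apoc1 (adjusted p = 1.49e-07), Fgg (adjusted p = 0.0122), F2 (adjusted p = 0.00103), F9 (adjusted p = 0.0175), Itih1 (adjusted p = 0.000572), Itih2 (adjusted p = 0.0153), Itih4 (adjusted p = 6.57e-08), Kng1 (adjusted p = 1.99e-07), Cp (adjusted p = 6.55e-10), C9 (adjusted p = 0.000326), Cfb (adjusted p = 0.0452), Rbp4 (adjusted p = 0.000279) and Vtn (adjusted p = 0.000146). The sizes by tissue are given above, and each test was added after the values were seen. The first test called 8 of the 31 members, where 21.2% of all genes were called, and the second 20, where 77.9% were.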

How the results depend on the processing

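All 31 calls for liver against other normal tissues and for liver carcinomas against other tumours held in every alternative run, and no called member changed direction in any alternative. The members' median in the liver sort went from 0.43 to -0.16 without negative samples 1 to 3, and in carcinoma against liver from 0.42 to -0.06 without the 3 low samples. In the liver sort, where no member was called, 1 was called with the mean of all probe sets, with array weights, without the 6 arrays of low upper quartile, or with the replicate block by title number; 2 without liver negative samples 1 and 2 and positive sample 2; and 10 with median centring. Leaving out 1 sample at a time gave 0 to 9 calls, the 9 without liver positive sample 2. Calls in the other 5 sorts together were 10, and 18 with array weights, which also raised the genes called from 1294 to 4045 in prostate, 1541 to 5951 in uterus, 212 to 1014 in lung, 28 to 462 in intestine and 447 to 487 in stomach. Carcinoma against normal liver gave 4 calls, and 2 with array weights, against Prom1-positive cells, without the 3 low samples, or without liver negative samples 1 to 3; 7 with liver and carcinoma samples alone or against Prom1-negative cells; and 8 without uterine carcinoma 6. Leaving out 1 sample gave 2 (liver positive sample 2) to 8 (uterine carcinoma 6), with 7 without liver positive sample 3 or negative samples 6 or 7. The cause was not tested. Over all genes the liver sort called 2914, and 4961 with array weights, 4614 without low arrays, 1401 with neighbouring codes as a block and 1418 without negative samples 1 to 3; without positive sample 3 it called 1553, and without positive sample 2, 4442. Tumour against normal uterus called 4226 genes, and 6777 with array weights. After repeated quantile normalization the liver sort split into 1488 higher and 1530 lower, and carcinoma against liver into 3238 and 3228.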
